A study of Mus musculus with 3 samples.

Results

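The activation state of tendon macrophages was followed through 10 genes, *Retnla*, *Arg1*, *Chil3*, *Nos2*, *Mrc1*, *Cd163*, *Folr2*, *Lyve1*, *Timd4* and *Trem2*, chosen by symbol from the 32285 genes of the files. All 10 were found. Single-cell RNA sequencing (scRNA-seq) was done on flexor digitorum longus (FDL) tendons, a hind paw flexor tendon, of mice of both sexes, with 16 tendons pooled into 1 library per group. The 6 M DTR library came from Scx-Cre+; DTR F/+ mice, in which Cre driven by the tendon gene *Scx* switches on a diphtheria toxin receptor, so that injected diphtheria toxin (DT) kills *Scx*-lineage cells. The 6 M WT library came from Scx-Cre-; DTR F/+ littermates without Cre. The paper names a C57BL/6 background for the receptor line and none for the Scx-Cre line. Mice of both groups carried the floxed receptor and received 5 daily DT injections into the hind paws. The labels give their age as 3 months, the age at injection, and the tendons were taken 3 months later, at 6 months. The 21 M B6 library came from C57BL/6J mice aged 21 months, which carried no receptor allele and received no DT. Tendons of 6 M WT were digested for 120 min and those of the other libraries for 90 min. Genotype, DT, age and digestion time therefore cannot be told apart where they differ together, and with 1 library per group no difference was tested. The libraries are called WT, DTR and B6 from here on.

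Macrophages take on different states according to the signals they receive. Interleukin-4 and interleukin-13 act through STAT6 to induce an alternative programme that includes *Retnla* (secreted RELMα), *Arg1* (arginase 1, which turns arginine into ornithine) and *Chil3* (the chitinase-like protein Ym1), whereas interferon gamma and microbial products induce *Nos2* (inducible nitric oxide synthase), which uses the same arginine to make nitric oxide. Long-lived resident macrophages of connective tissue and vessels carry endocytic receptors such as *Mrc1* (CD206), *Cd163*, *Folr2*, *Lyve1* and *Timd4*, and *Trem2* is a lipid-sensing receptor of macrophages that handle lipid and cell debris.

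STAT6 binds pairs of TTC and GAA separated by 4 letters, so the bases before the gene start were searched for TTCNNNNGAA, which reads the same on either strand. Promoter sequences came from RefSeq on GRCm38.p6 and were matched for 7 of the 10 genes, namely *Retnla*, *Mrc1*, *Cd163*, *Folr2*, *Trem2*, *Chil3* and *Timd4*. In the 250 bases before the start, the pattern was found in 1 of these 7 genes, *Retnla*, from 145 to 136 bases before the start, and in 5.85% of all 32851 promoters. The 3 sequences below are those of the matched genes that were at least 2-fold higher in macrophages of B6 than of DTR. They are *Retnla* (chr16:48842359-48842608, plus strand), *Cd163* (chr6:124304401-124304650, plus strand) and *Timd4* (chr11:46810549-46810798, plus strand), written in lower case with the TTC and GAA of the pattern in capitals.
Retnla: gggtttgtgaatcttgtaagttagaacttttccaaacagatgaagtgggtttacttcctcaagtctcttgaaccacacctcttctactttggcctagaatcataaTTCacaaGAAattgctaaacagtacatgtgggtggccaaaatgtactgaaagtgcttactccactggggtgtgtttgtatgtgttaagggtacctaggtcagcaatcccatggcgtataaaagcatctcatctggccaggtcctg
Cd163: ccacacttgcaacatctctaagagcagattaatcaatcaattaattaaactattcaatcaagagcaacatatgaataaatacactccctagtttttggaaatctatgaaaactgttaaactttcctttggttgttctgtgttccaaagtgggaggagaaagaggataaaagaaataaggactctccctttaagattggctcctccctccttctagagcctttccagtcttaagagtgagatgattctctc
Timd4: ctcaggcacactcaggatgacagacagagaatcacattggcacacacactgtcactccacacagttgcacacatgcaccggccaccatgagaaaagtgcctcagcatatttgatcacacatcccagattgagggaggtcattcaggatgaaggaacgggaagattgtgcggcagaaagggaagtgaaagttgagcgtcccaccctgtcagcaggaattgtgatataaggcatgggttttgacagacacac
A match of letters is a description and not a binding site.

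The libraries held 15536 barcodes (WT), 16099 (DTR) and 12273 (B6), with 148149903, 123918145 and 92707026 unique molecular identifiers (UMIs, each counting 1 captured transcript). Limits of 1000 to 5000 detected genes and of 10% for mitochondrial counts left 8357, 6554 and 4798 cells. Macrophages were defined as kept cells with at least 10 UMIs of *C1qa*, *C1qb* and *C1qc* together, the subunit genes of complement C1q. There were 532 in WT (6.37% of kept cells, 95% exact binomial interval 5.85 to 6.91), 1072 in DTR (16.4%, 15.5 to 17.3) and 468 in B6 (9.75%, 8.93 to 10.6). Their median depths were 16896, 13341 and 13853.5 UMIs per cell. Genes the definition did not use matched the label, since *Csf1r*, the receptor for macrophage colony-stimulating factor, was detected in 97.3% to 99.8% of them, *Cd68* in 91.7% to 93.2% and *Adgre1* (F4/80) in 80.5% to 85.0%. Between 61 and 76 barcodes were shared by each pair of libraries, of which 5 to 8 were a macrophage in at least 1 library of the pair. The share of kept cells in the tenocyte class, the cells that DT was to deplete, was 59.2% in WT, 39.0% in DTR and 15.7% in B6.

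Within macrophages, *Retnla* was the one of the 10 genes that differed most between libraries. Counts were summed over the macrophages of a library and divided by the library's summed UMIs of macrophages to give CPM (UMIs per 1e+06), with 95% intervals that cover counting error only. *Retnla* (ENSMUSG00000061100) stood at 94.1 CPM (87.9 to 101) in WT, 18.1 CPM (16.0 to 20.4) in DTR and 1344 CPM (1317 to 1372) in B6. The 3 intervals did not overlap, with B6 highest and DTR lowest, but they leave out the spread between cells. Most *Retnla* UMIs of WT and DTR lay in a few cells, so this non-overlap does not show that WT and DTR differ. The ratio was 14.3 (13.3 to 15.3) for B6 to WT, 0.192 (0.167 to 0.221) for DTR to WT and 74.3 (65.9 to 84.1) for B6 to DTR. These ratios share libraries, so they are not independent of each other.

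For B6, the *Retnla* difference from the younger libraries was also one of how many cells held it. After each macrophage had been thinned to 2000 UMIs, a *Retnla* UMI was found in 2.26% (1.17 to 3.91) of macrophages of WT, 1.31% (0.716 to 2.18) of DTR and 21.6% (17.9 to 25.6) of B6. The intervals of WT and DTR overlapped. No macrophage was too shallow for thinning, and without thinning the shares were 5.08%, 3.26% and 31.4%. Most *Retnla* counts of the younger libraries came from a handful of cells. In WT, 5 cells held 80.4% of the *Retnla* UMIs and a single cell held 214 of 859, while in DTR 5 cells held 55.4%. In B6, 5 cells held 25.1%, and 81 cells had at least 10 UMIs of the gene. Without the 5 macrophages of each library that held the most, an alternative chosen after seeing the data, the levels were 18.6, 8.10 and 1019 CPM. The order of the libraries was the same, the ratio of B6 to WT was 54.9 and that of DTR to WT was 0.436.

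Nearly all *Retnla* UMIs of kept cells lay in macrophages, 97.0% in WT, 98.2% in DTR and 98.2% in B6. RNA released from broken cells can add UMIs to cells that do not make a transcript. In tenocytes, which should lack *Retnla*, the level was 0.209 CPM, 0.0588 CPM and 3.00 CPM, and a *Retnla* UMI was found in 0.0202%, 0% and 0.532% of thinned tenocytes, whose median depths were 12956.5, 12578 and 11584.5 UMIs. The thinned macrophage shares lay above the tenocyte shares in all 3 libraries. Its relative *Retnlb* had 0 UMIs in macrophages of the 3 libraries, and *Retnlg* had 13, 1 and 0.

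**Figure D1:**
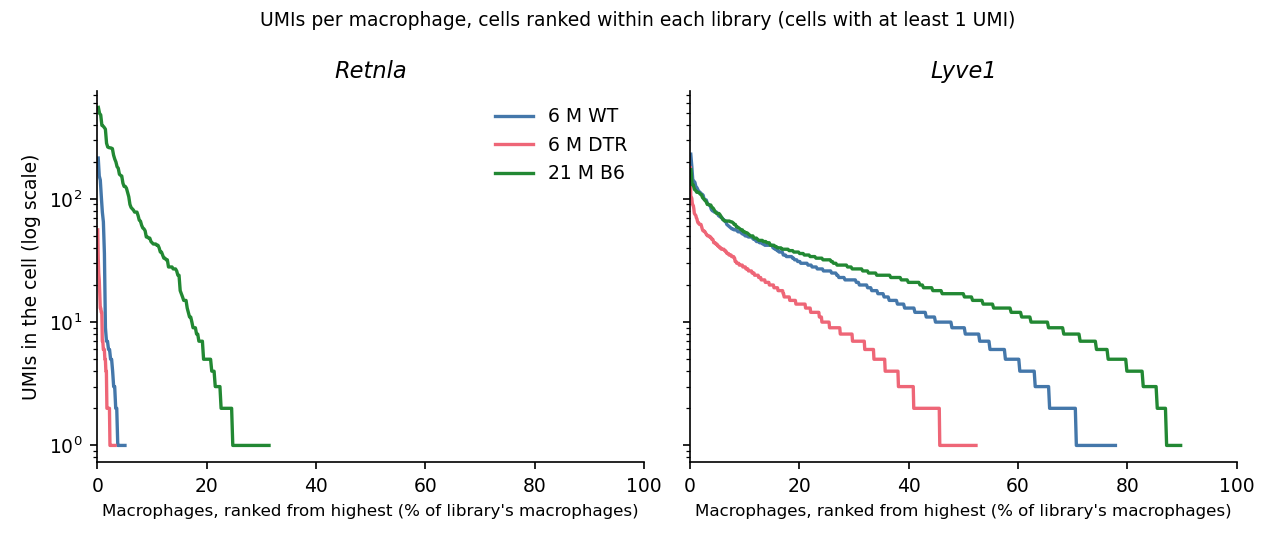
UMIs of *Retnla* (left) and *Lyve1* (right) in single macrophages on a log axis, with the cells of each library ranked from the highest and placed by their percentage of that library's macrophages; cells with 0 UMIs are not drawn. The *Retnla* lines end at 5.08%, 3.26% and 31.4% of macrophages of WT, DTR and B6, and the *Lyve1* lines at 77.8%, 52.3% and 89.7%.

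*Arg1* (ENSMUSG00000019987) did not share the *Retnla* pattern. It was at 15.1 CPM (12.7 to 17.9) in macrophages of WT, 1.57 CPM (1.01 to 2.34) of DTR and 3.51 CPM (2.25 to 5.22) of B6, so it was highest where *Retnla* was intermediate. The ratio to WT was 0.104 (0.0645 to 0.161) in DTR and 0.232 (0.144 to 0.360) in B6. This rested on 11 macrophages of WT, of which 5 held 87.7% of 138 UMIs; without the 5 highest cells of each library the levels were 1.89, 0.725 and 0.592 CPM, all under the minimum of 5 CPM used for calls. Of the 138 UMIs in WT, 136 lay in the 317 macrophages called female from *Xist* and Y-linked genes and 0 in the 145 called male. Among the cells called male, WT had 0 UMIs (0 to 1.48 CPM) and the 527 of DTR had 18 (2.27 CPM, 1.34 to 3.58). There the direction was reversed, but the intervals overlapped and both levels were under 5 CPM.

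Most *Arg1* lay outside macrophages, and in WT 65.4% of its UMIs were in myeloid cells with few C1q UMIs, against 4.35% in DTR and 2.5% in B6. These 148, 156 and 75 cells were defined by *Laptm5*, *Tyrobp*, *Fcer1g* and *Lyz2* below the C1q minimum. They carried *Arg1* at 309 CPM in WT (494 UMIs in 36 cells), 1.47 CPM in DTR (3 UMIs) and 2.68 CPM in B6 (3 UMIs). The ratio to WT was 0.00477 (0.00098 to 0.0140) in DTR and 0.00868 (0.00178 to 0.0255) in B6. In WT, the 29 of these cells with at least 2 *Arg1* UMIs had 4851 CPM of *Inhba*, which encodes the activin A subunit, and 598 CPM of *Cd74*, the class II invariant chain, compared with 679 and 9897 CPM in the other 119. Over all genes of this class, 5.77% were at least 2-fold lower and 8.84% higher in DTR than in WT, and 14.1% lower and 6.85% higher in B6 than in WT. Of the 8 of the 10 genes tested in DTR against WT, *Arg1*, *Chil3* and *Lyve1* were lower and none was higher. Of the 9 tested in B6 against WT, *Arg1*, *Chil3* and *Folr2* were lower and *Retnla* was higher. The *Retnla* call rested on 8 UMIs (7.15 CPM) against 2 in WT and 0 in DTR, the latter set to the floor, with a ratio to WT of 5.72 (1.14 to 55.3). Its interval of 3.09 to 14.1 CPM in B6 reached into the levels of the other classes outside macrophages there. Those ran from 2.22 CPM in mural cells to 5.87 CPM in T or NK cells. The part of released RNA was not tested. Compared with DTR, B6 had 5 of 8 higher (*Retnla*, *Mrc1*, *Cd163*, *Lyve1* and *Chil3*), against 4.26% of genes, and *Folr2* and *Trem2* lower, against 17.4%. For *Folr2*, 1 cell held 13 of 31 UMIs in WT and 1 cell held 17 of 33 in DTR, and B6 had 8 UMIs. The *Lyve1* calls rested on 30 UMIs in 7 cells of WT, 16 of them in 1 cell, 6 UMIs in DTR and 15 in B6. The *Chil3* call for B6 to DTR rested on 38 UMIs in 4 cells against 30 in 3 cells. The class also differed in makeup. The neutrophil gene *S100a8* was detected in 27.0% of its cells in WT, 1.92% in DTR and 4% in B6. In WT, the 29 cells with at least 2 *Arg1* UMIs held it at 52.8 CPM, and the other 119 at 3316 CPM. The part of this makeup in the differences between libraries was not tested.

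*Chil3* (ENSMUSG00000040809) was nearly absent from macrophages, with 0 UMIs in 532 cells of WT, which at a floor of 3 counts allows up to 0.564% of cells with a UMI, 7 UMIs in 1 cell of DTR and 2 UMIs in 2 cells of B6. Instead, 97.9%, 81.1% and 95% of the *Chil3* UMIs of kept cells lay in the C1q-low myeloid class, at 201 CPM in WT, 14.7 CPM in DTR and 34.0 CPM in B6. As for *Arg1*, WT was highest, with a ratio of 0.0734 (0.0487 to 0.107) for DTR and 0.169 (0.118 to 0.237) for B6. The positive cells were few, 32, 3 and 4. The related *Chil4* had 0 UMIs in macrophages of the 3 libraries. Of the 3 products of alternative activation, *Retnla* was thus a macrophage transcript here, *Chil3* was found mainly in myeloid cells with little C1q, and *Arg1* was found mainly there in WT alone.

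*Nos2* (ENSMUSG00000020826) was close to the detection limit in macrophages, with 15 UMIs (1.64 CPM) in WT, 26 (1.70 CPM) in DTR and 0 of 468 cells with a UMI in B6, which at the same floor allows up to 0.641% of cells with a UMI. Most *Nos2* UMIs of kept cells lay in tenocytes, 86.7%, 74.0% and 62.7%. The tenocyte level was 58.1 CPM (56.2 to 59.9) in WT, 25.6 CPM (23.9 to 27.3) in DTR and 11.1 CPM (9.10 to 13.5) in B6. The ratio was 0.441 (0.409 to 0.475) for DTR to WT, where 1.63% of the genes tested in tenocytes were at least 2-fold lower and 2.83% higher, and 0.192 (0.156 to 0.233) for B6 to WT, where 3.39% were lower and 3.5% higher. For B6 to DTR it was 0.435 (0.352 to 0.534), against 8.08% of genes lower and 3.94% higher. The median log2 ratio over all genes tested in tenocytes was 0.05, −0.27 and −0.33 in these comparisons. *Nos2* was detected in 4.27% (3.72 to 4.87), 2.08% (1.56 to 2.71) and 1.33% (0.639 to 2.43) of thinned tenocytes, and in B6 5 cells held 65.4% of its 104 UMIs. Macrophages, with 0.188%, 0.466% and 0% of thinned cells positive, lay below tenocytes in each library. The endothelial class carried 19.8, 10.6 and 12.2 CPM, on 23, 13 and 8 UMIs. Before thinning, a *Nos2* UMI was found in 12.9%, 8.13% and 6.15% of endothelial cells, against 10.2%, 4.58% and 3.06% of tenocytes. After thinning the endothelial shares were 6.11% (2.67 to 11.7), 1.63% (0.198 to 5.75) and 1.54% (0.0389 to 8.28).

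**Figure D2:**
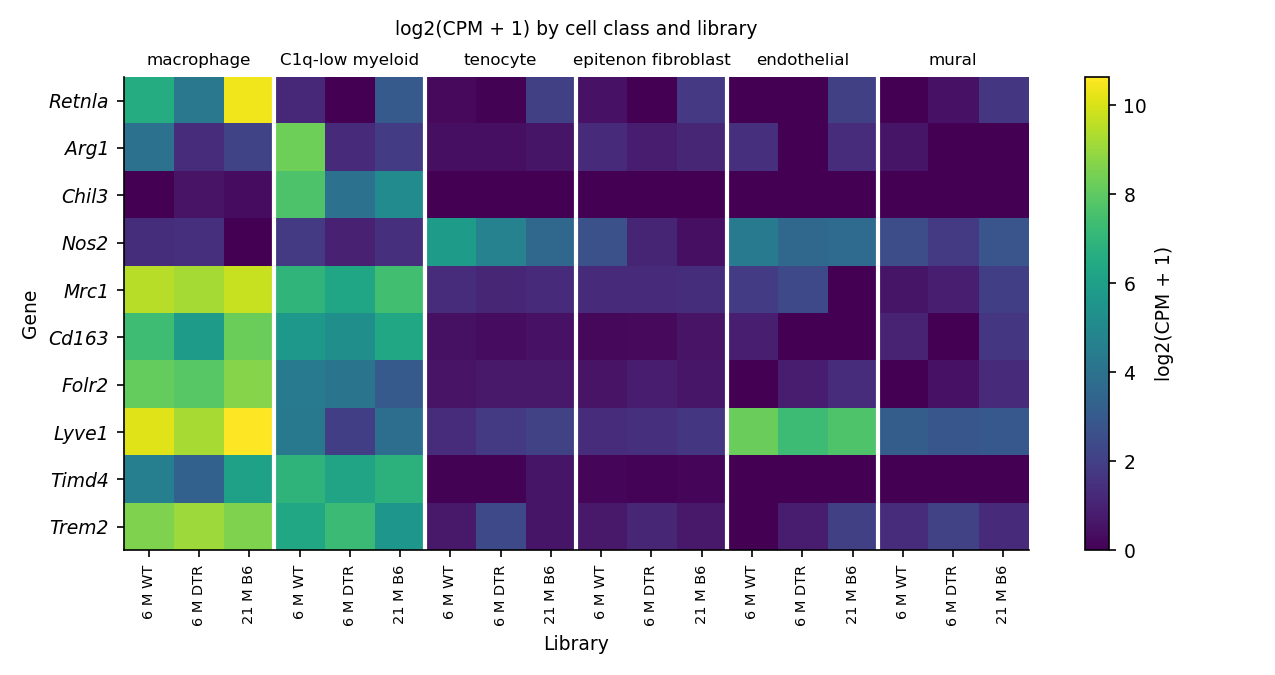
Levels of the 10 genes as log2(CPM + 1), with cell classes in blocks of 3 libraries along the horizontal axis and genes on the vertical axis. Each block holds WT, DTR and B6 in this order, with *Retnla* and 5 receptors (*Mrc1*, *Cd163*, *Folr2*, *Lyve1*, *Trem2*) highest in macrophages, *Nos2* in tenocytes of WT and DTR, and *Timd4*, *Chil3* and *Arg1* of WT in C1q-low myeloid cells.

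The endocytic receptors of resident macrophages shared 1 order, lowest in DTR and highest in B6. *Lyve1* (ENSMUSG00000030787), a hyaluronan receptor, was at 1101 CPM (1079 to 1122) in WT, 601 CPM (589 to 614) in DTR and 1591 CPM (1562 to 1622) in B6. It was found in 56.6%, 37.7% and 78.2% of thinned macrophages, and its 5 highest cells held at most 8.24% of its UMIs, so the difference was spread over many cells. The ratio to WT was 0.546 (0.531 to 0.562) in DTR and 1.45 (1.41 to 1.49) in B6, and B6 had 2.65 (2.57 to 2.72) times the level of DTR.

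*Cd163* (ENSMUSG00000008845), the scavenger receptor for haemoglobin bound to haptoglobin, was at 162 CPM (154 to 170), 55.6 CPM (51.9 to 59.5) and 300.1 CPM (287 to 313) in WT, DTR and B6. Thinned shares were 18.8%, 7.46% and 33.3%. The ratio of DTR to WT was 0.344 (0.316 to 0.374) and that of B6 to DTR 5.40 (4.98 to 5.86), both past 2-fold, whereas B6 to WT was 1.86 (1.73 to 1.99). The last ratio passed 2-fold only among cells called male, at 2.46.

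*Timd4* (ENSMUSG00000055546) encodes TIM-4, a receptor for phosphatidylserine on dying cells. It was at 23.3 CPM (20.3 to 26.7) in WT, 8.91 CPM (7.48 to 10.5) in DTR and 67.2 CPM (61.2 to 73.6) in B6, with thinned shares of 3.76%, 1.59% and 14.5%. The ratio was 0.382 (0.306 to 0.476) for DTR to WT, 2.88 (2.44 to 3.40) for B6 to WT and 7.54 (6.21 to 9.19) for B6 to DTR. In DTR 1 cell held 46 of 136 UMIs, and leaving out the 5 highest cells of each library moved the ratio of DTR to WT to 0.208. The ratio of B6 to WT was 1.90, short of 2-fold, at a limit of 5% mitochondrial counts and 4.52 in cells called male. That of B6 to DTR was 3.45 in cells called female and 19.5 in cells called male. Among cells called female the ratio of DTR to WT was 0.721, also short of 2-fold, with 28.4 CPM in WT and 20.5 CPM in DTR. Macrophages held 44.1%, 43.6% and 76.4% of the *Timd4* UMIs, and the C1q-low myeloid class carried the gene at 119, 73.6 and 114 CPM in 11, 15 and 18 cells. There the 13 cells of DTR with at least 2 UMIs had 32776 CPM of *Cd74*, against 9720 CPM in the other 143, and the 14 such cells of B6 had 28865 CPM, against 19506 CPM in the other 61.

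The remaining receptors differed less. *Mrc1* (ENSMUSG00000026712), the mannose receptor, was at 716 CPM (699 to 734), 585 CPM (573 to 597) and 854 CPM (833 to 877), and *Folr2* (ENSMUSG00000032725), the folate receptor beta, at 279 CPM (269 to 290), 236 CPM (228 to 244) and 421 CPM (405 to 436). Their ratios to WT were 0.816 (0.791 to 0.843) and 0.844 (0.802 to 0.888) in DTR, and 1.19 (1.15 to 1.24) and 1.51 (1.43 to 1.59) in B6, none past 2-fold. *Mrc1* in B6 changed direction, to 0.940 times WT, when macrophages were limited to 5% mitochondrial counts, a limit that kept 154 of 468 macrophages of B6, 476 of 532 of WT and 928 of 1072 of DTR. Thinned shares were 67.9%, 55.1% and 70.7% for *Mrc1* and 37.8%, 31.4% and 50.9% for *Folr2*.

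*Trem2* (ENSMUSG00000023992) stood apart in its order. It was highest in DTR, at 540 CPM (528 to 551), compared with 386 CPM (373 to 399) in WT and 386 CPM (372 to 401) in B6. The ratio to WT was 1.40 (1.34 to 1.45) in DTR and 1.00 (0.951 to 1.05) in B6, an interval for counting error only. It was found in 51.9% (47.5 to 56.2) of thinned macrophages of WT, 62.2% (59.2 to 65.1) of DTR and 48.9% (44.3 to 53.6) of B6.

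**Figure D3:**
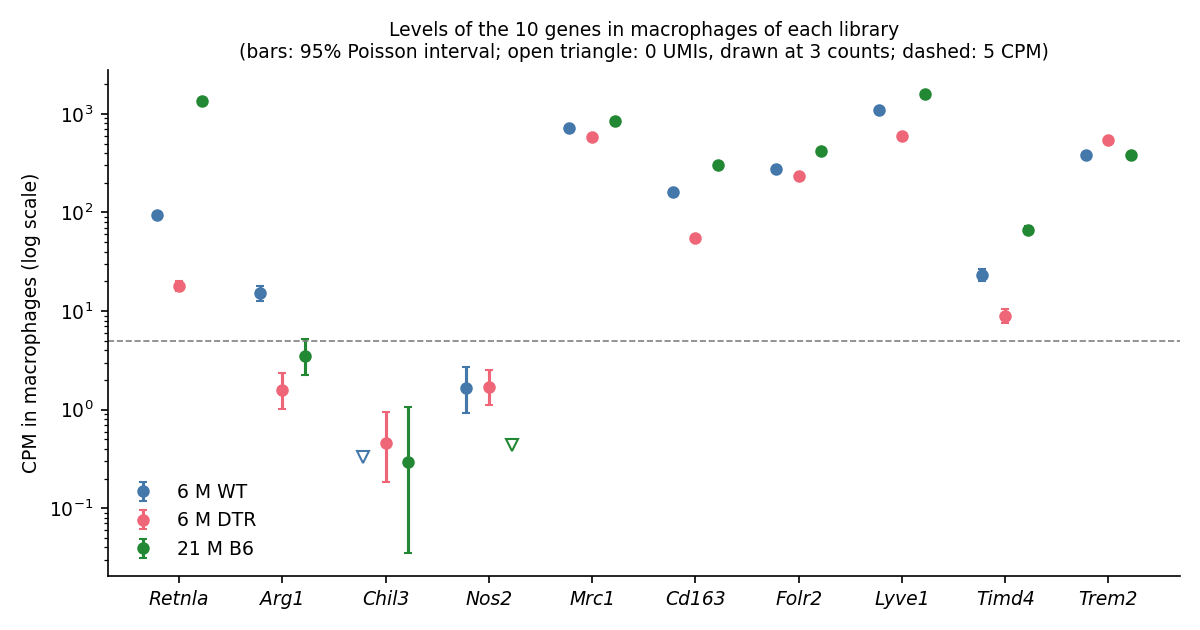
CPM of the 10 genes in macrophages on a log axis, 1 point per library with its 95% Poisson interval; open triangles mark 0 UMIs, drawn at the level of 3 counts, and the dashed line marks 5 CPM. *Retnla* runs from 18.1 to 1344 CPM, whereas *Mrc1*, *Folr2* and *Trem2* lie close together in the 3 libraries.

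Taking the genes that reached 5 CPM in at least 1 library of a pair, 4 of 8 were at least 2-fold lower in DTR than in WT (*Retnla*, *Arg1*, *Cd163* and *Timd4*), where 1.35% of the 9103 genes tested were. None of the 8 was at least 2-fold higher, against 1.23% of all genes. In B6 compared with WT, 2 of 8 were higher (*Retnla* and *Timd4*), against 3.99% of 9188 genes, and 1 of 8 was lower (*Arg1*), against 3.56%. *Arg1* reached 5 CPM in WT alone, so it entered both counts of lower genes through WT. Without the 5 highest cells of each library it was under 5 CPM in every library. In B6 compared with DTR, 4 of 7 were higher (*Retnla*, *Cd163*, *Lyve1* and *Timd4*), against 4.33% of 9234 genes, and 0 of 7 were lower, against 3.34%. The median log2 ratio over all tested genes was −0.03, −0.08 and −0.07 in these comparisons.

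**Figure D4:**
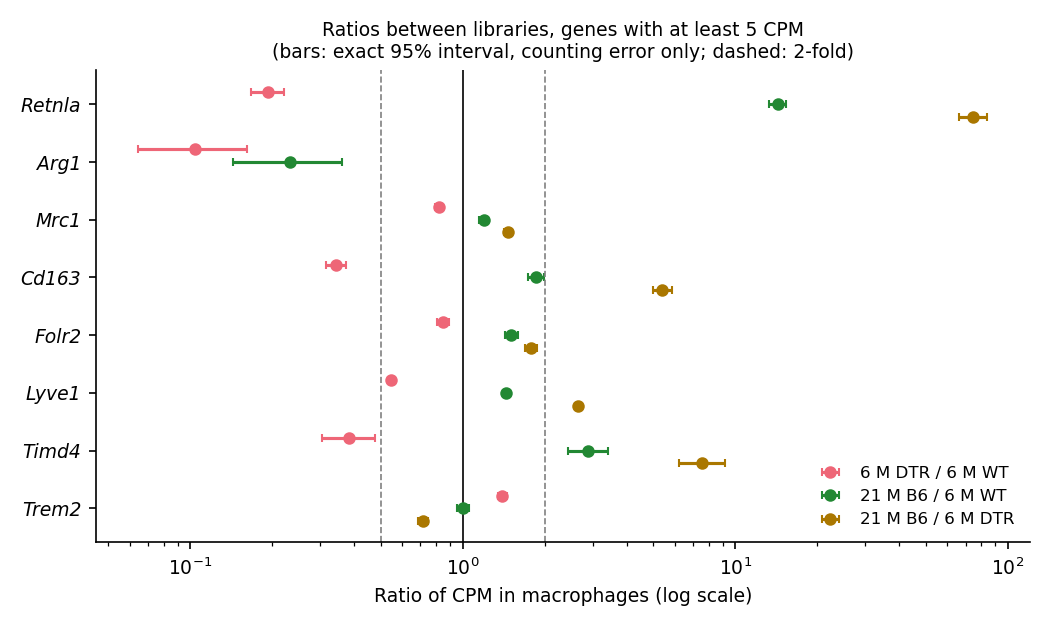
Ratios of macrophage CPM between libraries for the 8 genes with at least 5 CPM, on a log axis with exact 95% intervals for counting error; dashed lines mark 2-fold. The ratios of B6 to DTR reach 74.3 for *Retnla*, and *Trem2* is the only gene drawn above 1 in DTR relative to WT.

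Digestion time and stress genes differed between libraries as well. Of 12 genes known to respond to tissue dissociation, 0 were past 2-fold between DTR and WT, 4 were higher and 1 lower in B6 than in WT, and 4 were higher and 2 lower in B6 than in DTR, both digested for 90 min. Over all genes 1.23% were higher and 1.35% lower in the first comparison, 3.99% and 3.56% in the next, and 4.33% and 3.34% in the last. The heat shock gene *Hspa1a* was at 1197 CPM in B6, compared with 316 CPM in WT and 262 CPM in DTR. Macrophages of B6 also had the highest median mitochondrial share, 5.70%, against 2.97% and 3.08%. At a limit of 5% mitochondrial counts, the B6 to WT ratio was 10.9 for *Retnla*, 1.27 for *Lyve1* and 1.37 for *Folr2*. With 1.90 for *Timd4*, 0.163 for *Arg1* and 0.940 for *Mrc1*, each was the lowest of the alternatives run. *Trem2* was highest there, at 1.08, and *Cd163* was lowest in cells called female, at 1.51. The part of digestion time, stress genes and mitochondrial share in the differences above was not tested. Within the cells called female, *Retnla* was at 101, 31.8 and 1596 CPM in WT, DTR and B6, and within those called male at 31.7, 8.18 and 1239 CPM, the same order in either sex. Female-called cells made up 59.6%, 32.4% and 56.0% of macrophages. Among them the ratio of DTR to WT was 0.642 for *Lyve1* and 0.419 for *Cd163*, against 0.546 and 0.344 in all macrophages. For *Mrc1* and *Folr2* it was 0.915 and 0.951 in cells called male, against 0.816 and 0.844 in all macrophages. The part of the sex mix in the differences was not tested.

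Macrophages differ in their surface class II molecules, which present antigen, and the genes were therefore set against that level. Class II high macrophages had at least 10 UMIs of class II genes after thinning and numbered 16 in WT, 100 in DTR and 38 in B6. In each library *Lyve1* and *Folr2* were lower in them than in the class II low macrophages. *Lyve1* was at 40.2 against 1137 CPM in WT, 17.9 against 657 CPM in DTR and 253 against 1708 CPM in B6, ratios of 0.0353, 0.0273 and 0.148. *Folr2* had ratios of 0.0697, 0.159 and 0.240. Counted together, 4, 3 and 3 of the 8 genes above 5 CPM were at least 2-fold lower in class II high cells of WT, DTR and B6, against 21.7%, 12.1% and 20.6% of all genes tested. At least 2-fold higher were *Retnla* and *Timd4* in WT, *Timd4* and *Chil3* in DTR, and *Retnla* and *Arg1* in B6, against 7.52%, 4.51% and 6.59% of genes. Of these, *Chil3* rested on 7 UMIs in 1 cell and *Arg1* on 4 against 20 UMIs, with an interval of 0.571 to 6.85 for the ratio of 2.30. *Mrc1* ratios were milder at 0.394, 0.476 and 0.658, and those of *Trem2* were 0.460, 0.741 and 0.774. *Cd163* did not share a direction, with ratios of 0.802, 1.41 and 0.750, and neither did *Timd4*, with 3.06, 7.97 and 0.177. The *Timd4* ratios rested on 20, 59 and 7 UMIs in class II high cells. In DTR 1 macrophage held 46 of the 136 *Timd4* UMIs, and its class II level was not examined. In B6, *Retnla* was at 3020 CPM (2876 to 3169) in class II high and 1198 CPM (1171 to 1226) in class II low macrophages, a ratio of 2.52. The class II high level rested on 1657 UMIs in 38 cells, and a single macrophage of B6 held up to 551. How the 1657 UMIs were spread over the cells was not examined, and the intervals leave this spread out. *Retnla* in WT rested on 1 cell that held all 214 UMIs of the class II high group.

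Library differences were then compared within each class II level. In class II low macrophages *Retnla* was 16.4 (15.1 to 17.8) times and *Timd4* 3.29 (2.78 to 3.92) times as high in B6 as in WT. *Lyve1* was at 0.578 (0.562 to 0.595) and *Cd163* at 0.330 (0.301 to 0.360) times the WT level in DTR. The few class II high macrophages differed from this for *Timd4*, with a ratio of 0.191 (0.0681 to 0.469) for B6 to WT and 0.289 (0.111 to 0.634) for B6 to DTR, on 20, 59 and 7 UMIs in WT, DTR and B6. For DTR to WT, *Folr2* had a ratio of 2.01 (0.866 to 5.72) and *Mrc1* of 1.01 (0.80 to 1.29) in class II high cells. *Trem2* had a ratio of 2.26 (1.71 to 3.05) there and of 1.41 (1.35 to 1.46) in class II low cells.

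**Figure D5:**
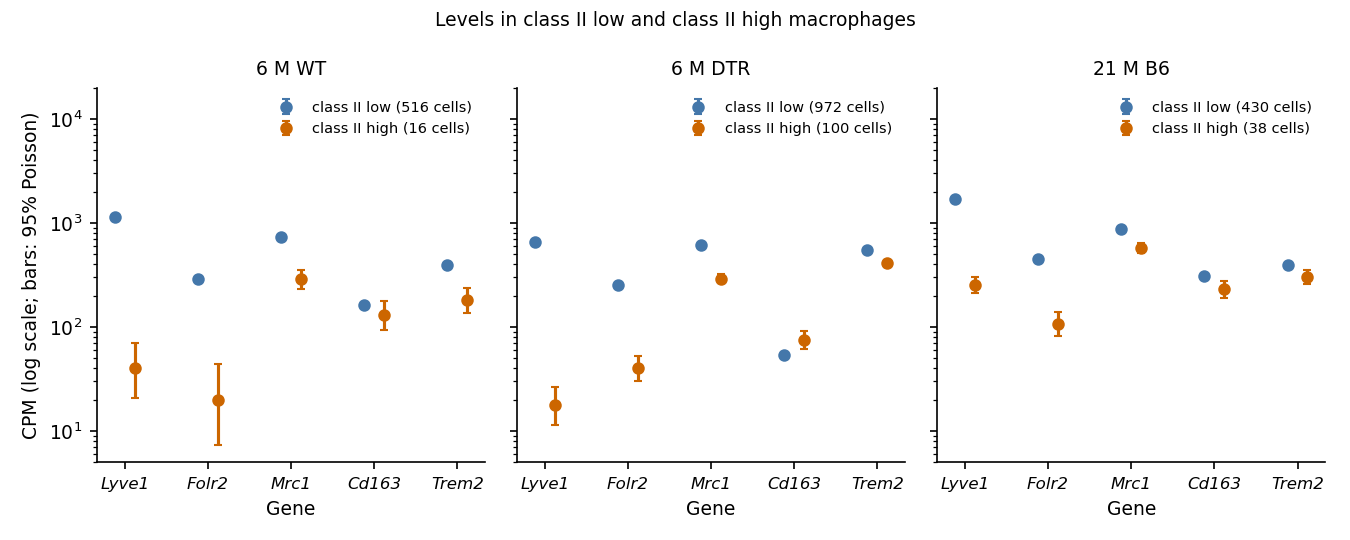
CPM of 5 receptor genes in class II low and class II high macrophages of each library, on a log axis with 95% Poisson intervals and the number of cells in the key. *Lyve1* and *Folr2* lie lower in class II high cells of each library, whereas *Cd163* lies close in both.

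*Folr2* was found more often in macrophages that also held *Lyve1*, in each library. After thinning, it was detected in 51.2% (45.4 to 56.9) of *Lyve1*-positive and 20.3% (15.3 to 26.1) of *Lyve1*-negative macrophages of WT, in 53.2% (48.2 to 58.2) and 18.3% (15.4 to 21.4) of DTR and in 56.6% (51.3 to 61.7) and 30.4% (21.7 to 40.3) of B6. *Retnla* was likewise found mainly with *Lyve1* in B6, in 25.7% (21.3 to 30.5) of *Lyve1*-positive and 6.86% (2.80 to 13.6) of *Lyve1*-negative macrophages. For *Mrc1* the order was the other way, since *Retnla* was found in 18.4% (14.4 to 23.0) of *Mrc1*-positive and 29.2% (21.7 to 37.6) of *Mrc1*-negative macrophages of B6, with intervals that overlap. *Trem2* showed little relation to *Lyve1*, at 53.2% and 50.2% in WT, 66.1% and 59.9% in DTR and 47.8% and 52.9% in B6. Cells of 1 library are not replicates, and these shares describe the cells sampled.

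In stromal classes the receptors were rare. *Mrc1*, *Cd163*, *Folr2* and *Trem2* were at 4.14 CPM or lower in tenocytes and epitenon fibroblasts of the 3 libraries, the highest being *Trem2* in tenocytes of DTR. That level was 6.45 (4.56 to 9.30) times the WT level of 0.642 CPM, on 141 and 43 UMIs, both under the minimum of 5 CPM. The part of RNA released from broken cells in it was not tested. After thinning, a UMI of these 4 genes was found in at most 0.901% of tenocytes. *Lyve1*, which is also a lymphatic vessel gene, was the exception, with 292 CPM (262 to 325), 154 CPM (133 to 177) and 211 CPM (177 to 249) in the 132, 123 and 65 endothelial cells. It was detected in 9.85%, 14.6% and 9.23% of them before thinning. Macrophages nevertheless held 94.7%, 96.0% and 97.2% of its UMIs.

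Other genes of the same programmes were counted from lists of related genes. Of the resident macrophage genes with at least 5 CPM, 0 of 15 were higher and 2 lower in DTR than in WT, 6 of 18 were higher and 0 lower in B6 than in WT, and 12 of 18 were higher and 0 lower in B6 than in DTR. The shares over all genes, higher and lower, were 1.23% and 1.35%, 3.99% and 3.56%, and 4.33% and 3.34% in these comparisons, and they are the background for the other lists too. The list's median log2 ratios were −0.27, 0.84 and 1.31. *Vsig4*, a complement receptor, was at 107, 24.9 and 431 CPM in WT, DTR and B6, and *Cbr2*, a carbonyl reductase, at 122, 91.9 and 305 CPM. *Selenop*, which encodes a secreted selenium carrier, was at 917, 984 and 2414 CPM, and *F13a1*, the factor XIII subunit gene, at 855 CPM in DTR and 1738 CPM in B6. The collectin *Colec12* was at 68.7 CPM in WT and 26.9 CPM in DTR.

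Most measured genes of the alternative and classical programmes stayed within 2-fold. Of 10 measured alternative activation genes, 1 was higher and 0 lower in DTR than in WT, 2 were higher and 0 lower in B6 than in WT, and 1 was higher and 1 lower in B6 than in DTR, with median log2 ratios of 0.08, 0.57 and 0.56. Over all tested genes the medians were −0.03, −0.08 and −0.07. *Ccl17*, a chemokine for T cells, was at 4.60, 75.2 and 9.93 CPM in WT, DTR and B6, and the lectin *Clec10a* at 10.3, 12.8 and 45.1 CPM. Of 17 classical activation genes, 0 were higher and 1 lower, 1 higher and 4 lower, and 1 higher and 3 lower in the same comparisons, beside the same shares over all genes, with medians of −0.19, −0.17 and −0.23. The cytokine gene *Il1b* was at 813, 860 and 96.4 CPM and *Il1a* at 1149, 376 and 133 CPM, lowest in B6, and *Tnf* was at 3634 CPM in WT and 1466 CPM in B6. *Ccl5* was at 36.9, 53.6 and 14.6 CPM, while *Il6* was higher in B6, with 28.5, 25.0 and 58.4 CPM. Among 8 measured genes of arginine use, none passed 2-fold in DTR, and 1, the arginine transporter *Slc7a2*, was higher in B6 than in either younger library, with 25.0, 24.3 and 76.7 CPM.

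Of 16 measured genes of *Trem2* signalling and lipid handling, 4 were higher and 0 lower in DTR than in WT, 3 of 15 were higher and 3 lower in B6 than in WT, and 0 of 16 were higher and 6 lower in B6 than in DTR. The medians were 0.22, 0.25 and −0.50. The lipid carrier *Apoe* was at 399, 1754 and 1793 CPM in WT, DTR and B6, and *Gpnmb*, a glycoprotein of lysosome-rich macrophages, at 5.04, 30.5 and 17.8 CPM. *Spp1* (osteopontin) was at 278, 965 and 67.2 CPM and the fatty acid carrier *Fabp5* at 10.4, 102 and 29.9 CPM. *Cd9*, a tetraspanin, was at 1865, 1687 and 714 CPM. *Lgals3* (galectin 3) and *Lpl* (lipoprotein lipase) were also lower in B6 than in DTR, with ratios of 0.493 and 0.273. Of 7 measured class II and monocyte-derived genes, 5 were higher and 0 lower in DTR than in WT, 1 was higher and 0 lower in B6 than in WT, and 0 were higher and 1 lower in B6 than in DTR, with medians of 1.08, 0.83 and −0.27. *Cd74* was at 701, 1465 and 1280 CPM in WT, DTR and B6, *H2-Aa* at 197, 417 and 410 CPM, and *Ccr2*, the chemokine receptor that brings monocytes into tissue, at 26.5, 106 and 35.3 CPM. Markers of monocytes (3 genes) summed to 0.766, 1.64 and 1.61 CPM in macrophages, those of dendritic cells (5 genes) to 5.26, 11.2 and 9.64 CPM, and those of neutrophils (4 genes) to 31.5, 7.41 and 10.4 CPM, with *S100a9* at 0 in DTR. The part of such cells in the differences between libraries was not tested.

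Across 18 summed profiles, from 6 classes in 3 libraries, the log2(CPM + 1) pattern of *Retnla* was most like those of *Vsig4* (Pearson r = 0.956), *Cxcl13* (0.912) and *Cbr2* (0.901) among 5282 genes. *Lyve1* was most like *Stab1*, *Serinc3* and *Cmah* (0.978, 0.958 and 0.940), *Folr2* most like *C1qb*, *Gpr34* and *P2ry12* (0.991, 0.986 and 0.982) and *Trem2* most like *Csf1r*, *Ms4a7* and *Pf4* (0.991, 0.983 and 0.983). For *Mrc1* they were *Pepd*, *Clec12a* and *Adgre1*, for *Cd163* *Atp6v0c*, *Slamf9* and *Nckap1l*, and for *Timd4* *Mgl2*, *Pla2g7* and *Bcl2a1d*. For *Arg1* they were *Asprv1*, *Stfa1* and *Cd300lf*, for *Chil3* *Il5*, *Il1f9* and *Arg2*, and for *Nos2* *Cbx1*, *Clu* and *Myo1d*. *C1qb*, the gene most like *Folr2*, is part of the macrophage definition, so its pattern over the classes follows in part from that definition. Profiles of 1 library share its depth and the classes differ strongly, so the r values describe where the genes are found.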

How the data were processed

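Single-cell RNA sequencing (10x 3′ chemistry) was done on 3 FDL tendon libraries, 1 per group. The authors deposited count matrices from Cell Ranger, which hold raw UMI counts per gene and barcode and list no barcode under 500 UMIs. The file headers name version 6.0.1 and the submitters' processing notes name 2.1.1. Which genome build and gene models were used is not given in the sources used here.

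From these counts, only barcodes inside limits of 1000 to 5000 detected genes and 10% for mitochondrial counts were used. Macrophages had at least 10 UMIs of *C1qa*, *C1qb* and *C1qc*. Other classes needed at least 5 UMIs of their markers and a sum at least 3 times that of any other class; remaining cells were left unassigned. The 10 genes, the gene lists and the markers were chosen with earlier results of these data known. No doublet caller was run, and barcodes with markers of a further class were left out in an alternative. UMIs were summed per class and library, and a gene was counted as higher or lower at 2-fold if either library of the pair reached 5 CPM. Levels carry 95% Poisson intervals, shares exact binomial (Clopper-Pearson) intervals and ratios exact conditional intervals, and all cover counting error only, not differences between mice. With 1 library per group no test was possible. A gene with 0 UMIs was set to a floor of 3 counts per library for ratios. Shares were taken after thinning cells to 2000 UMIs, and class II high cells had at least 10 class II UMIs after thinning. Likeness used classes of at least 50 cells, genes of at least 50 CPM and log2(CPM + 1). Sex was called from *Xist* and Y-linked genes. Promoters came from RefSeq on GRCm38.p6. Genes named besides the 10 were those past 2-fold in a list, in order of highest macrophage CPM, up to 4 per direction and list, the 3 most alike per gene, and markers; the genes described in C1q-low myeloid cells were chosen after their values were seen. Alternatives changed the C1q minimum, further gates, filters, sex, scaling (TMM), weighting, low-value filter and fold. The ratio and thinning steps were tested on simulated data. Python 3.11.15, numpy 2.4.6, scipy 1.17.1, pandas 2.3.3, matplotlib 3.10.9, R 4.3.3 and edgeR 4.0.16 (TMM factors only) were used.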

Additional observations from a re-analysis of the deposited data

Results flagged for a closer look

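*Folr2* differed between libraries in opposite directions in macrophages and in C1q-low myeloid cells. The ratio of B6 to WT was 1.51 (95% interval 1.43 to 1.59) in macrophages and 0.369 (0.147 to 0.821) in C1q-low myeloid cells, and the ratio of B6 to DTR was 1.78 (1.70 to 1.87) and 0.442 (0.176 to 0.975). The intervals lay on opposite sides of 1. The C1q-low myeloid values of *Folr2* rested on 31 UMIs in WT, 33 in DTR and 8 in B6. A single cell held 13 of the 31 in WT, and another held 17 of the 33 in DTR. Before thinning, a *Folr2* UMI was found in 8.11%, 7.05% and 8% of the C1q-low myeloid cells of WT, DTR and B6. These shares were not matched for depth, since the median was 9092 UMIs per cell in WT, 10246.5 in DTR and 13085 in B6. After thinning, the shares were 2.70% (0.741 to 6.78), 0.645% (0.0163 to 3.54) and 0% (0 to 4.80), with intervals that overlap. The positive cells were few, and their part in the lower level of B6 was not tested. The intervals of the ratios do not cover the spread between cells. The difference between the classes was not tested, since each library is 1 sample.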

How the results depend on the processing

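With 1 library per group, the values cannot be set against differences between mice, and digestion time, DT and age cannot be told apart. Of 298 alternative values of the ratios between libraries, 201 stayed inside the counting interval of the main ratio, 96 moved further and 1 was labelled reversed. That label was given only where the main ratio was at least 2-fold. Of 120 alternative values of the macrophage shares, 90 moved out of their interval. These changed the thinning depth, left it out or asked for 2 UMIs. For the class II split 15 of 44 moved, and for stromal levels 1 of 14. *Arg1* in DTR against WT had a log2 ratio of 0.91 in cells called male, where WT had 0 UMIs and was set to the floor. Among smaller ratios, B6 to WT kept its direction in 12 of 13 alternatives for *Mrc1* and in 8 of 13 for *Trem2*. The counts of genes past 2-fold in DTR against WT and of those higher in B6 against DTR moved by less than 1.5 times under every alternative run. Higher in B6 against WT were 1 gene, not 2, at a limit of 5% mitochondrial counts, and 4 at 1.5-fold. Lower in B6 against WT were 2 genes, not 1, with no upper limit on genes, 2 with no filter on cells and 2 with no minimum CPM, and 0 in cells called male and 0 without the 5 cells holding the most UMIs of each gene, an alternative chosen after seeing the data. Lower in B6 against DTR was 1 gene, not 0, with no minimum CPM. The share over all genes was not computed under the alternatives, so these counts have no background to be set against. *Retnla* stayed past 2-fold in each comparison under all 13 alternatives, with ratios of 0.165 to 0.436 for DTR to WT, 10.9 to 54.9 for B6 to WT and 50.2 to 151 for B6 to DTR. Except where stated, the cause of a moved value was not tested. No paired analysis was possible because each group has 1 library.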
